A study of Mus musculus with 12 samples.

Results

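The genes described here encode the enzymes that write, maintain and remove DNA methylation in the mouse: Dnmt1, Dnmt3a, Dnmt3b, Dnmt3l, Uhrf1, Tet1, Tet2, Tet3 and Tdg. They were taken as a named family, with no use of measured values, and all 9 were found among the 21900 protein-coding genes of the RefSeq gene table (GRCm38.p6). What was measured is not DNA methylation but N6-methyladenosine (m6A), a methyl mark on adenosines of mRNA, in the transcripts of these genes. For each gene, the m6A peaks overlapping its span by at least 1 base were counted in 6 peak lists, 3 of spermatogonial stem cells (SSC) and 3 of their derivatives with neural stem cell features (iNSC). The 9 genes held 156 of the 118075 listed peaks, 92 in SSC and 64 in iNSC lists, and all 156 lay on the strand of their gene.

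SSCs keep up sperm production in the testis by renewing themselves. Here they had been grown on inactivated STO mouse fibroblasts, with GDNF, LIF, EGF and basic FGF in the medium. The iNSC groups came from SSCs that were plated on laminin after differential plating, received 1 µM retinoic acid for 24 h, and then went into medium for neural cells that held basic FGF and 10 µM SB431542, which blocks TGF-β type I receptors. Poly(A) RNA was cut to about 200 nt and pulled down with an m6A antibody. With the 6 matching input libraries not analysed here, a missing peak can mean less transcript, less m6A on it or fewer cells that express the gene, and these cannot be told apart. The labels give no strain or animal age and do not say whether the replicates were separate cultures. The p-values thus rest on library-to-library spread alone, part or all of which may be technical.

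DNA methylation is copied at each cell division by Dnmt1, which is brought to newly replicated DNA by Uhrf1. New methylation is set by Dnmt3a and Dnmt3b, helped in germ cells by Dnmt3l, a relative with no catalytic activity of its own. The Tet enzymes oxidise methylcytosine, and Tdg cuts out the most oxidised forms so that base excision repair can put back an unmethylated cytosine. Male germ cells are known for a methylation pattern of their own, set before birth with Dnmt3a and Dnmt3l.

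The lists held 19728 to 27597 peaks in SSCs and 13913 to 16060 in iNSCs, with median widths of 193 to 205 bases and 368 to 433 bases. Read depth is unknown, because the lists hold no counts. The titles were followed for the groups, since a further label, the cell type, contradicts title and source for 12 of 12 samples. Of 5 germ cell and SSC markers, peaks were found in 4, 3 and 3 in SSCs and in 0, 0 and 1 in iNSCs. Ddx4, Zbtb16 and Lhx1 had peaks in each SSC list and in no iNSC list. Of 3 neural stem cell markers, 2, 2 and 3 had a peak in SSCs and 2 in each iNSC list: Pax6 had 0, 0 and 1 peaks against 3, 4 and 4, while Sox2 had 1 in each SSC list and none in iNSCs. Of 4 testis somatic cell markers, 3, 3 and 2 had a peak in SSCs and 1 in each iNSC list, with summed peak numbers of 6 in each SSC list and 1 to 2 in iNSCs, and Cyp11a1, which marks Leydig cells, was at 0 in all 6. The iNSC peaks among these 4 were all in Sox9, with 2, 1 and 1, against 3 in each SSC list. Of 4 fibroblast feeder markers, 2, 1 and 4 had a peak in SSCs and 1, 1 and 2 in iNSCs, with summed peak numbers of 2, 2 and 8 against 1, 1 and 3. Vim (1, 2 and 3 peaks) and Thy1 (0, 0 and 1) had theirs in SSCs alone, and Col1a1 and Col1a2 in both cell types. Whether each of these marker genes is confined to the cell type it is listed under was not tested. The part of other cells in the results below was not tested either.

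Peaks were listed in 4 of the 9 genes in both cell types and in the other 5 in SSCs alone. Dnmt1, Dnmt3a, Tet2 and Tet3 had a peak in all 6 lists, as 30.6% of the 13753 genes with any peak did. Dnmt3b, Dnmt3l, Uhrf1, Tet1 and Tdg had peaks in SSC lists and none in iNSC lists, a pattern of 38.8% of genes. The number of the 9 genes with a peak was 7, 6 and 9 in SSCs (7.33 ± 1.53, SD, n = 3) and 4, 4 and 4 in iNSCs. Among all protein-coding genes 44.5% ± 4.79 had a peak in SSC lists and 33.3% ± 1.37 in iNSC lists. Uhrf1 was the only one of the 9 found in every SSC library and no iNSC library. That pattern was found in 10.9% of genes, and its reverse, found in 2.44% of genes, was shown by 0 of the 9.

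**Figure D1:**
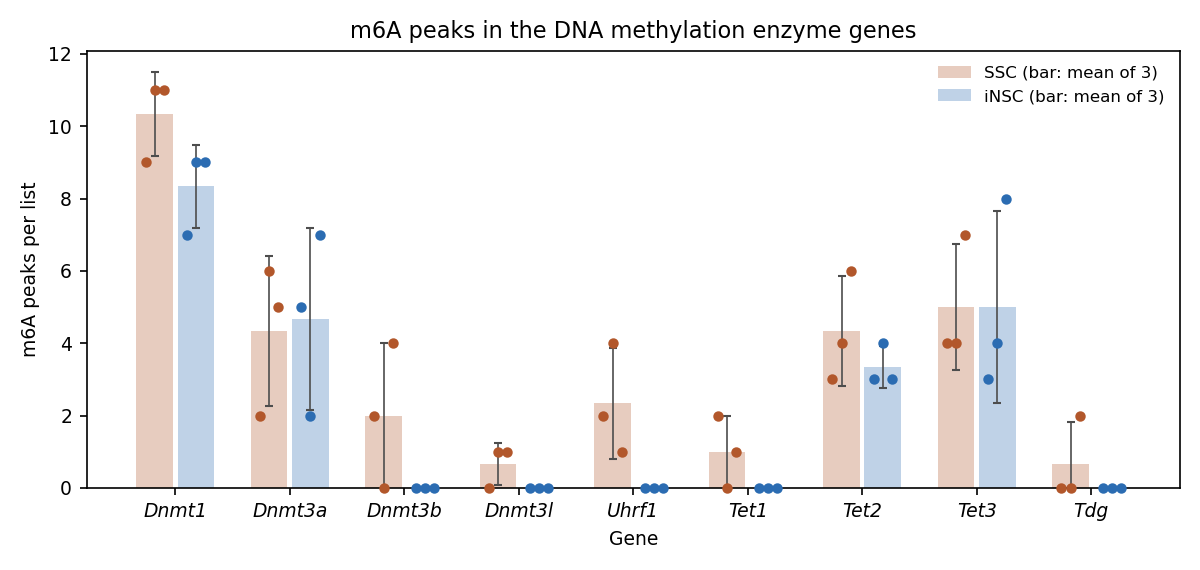
Number of m6A peaks per list (y axis) in each of the 9 genes (x axis). Points are the 3 SSC and 3 iNSC lists, bars their means and lines 1 SD; Dnmt3b, Dnmt3l, Uhrf1, Tet1 and Tdg sit at 0 in all iNSC lists, and Dnmt1 has the most peaks in every SSC list.

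Groups were called different in a gene when the 3 SSC and the 3 iNSC values did not overlap, which gives the smallest p of the exact two-sided permutation test, 0.1. No gene could reach a smaller p, and the smallest adjusted p over all 13753 genes was 0.48 for peak number and 0.301 for covered bases (Benjamini-Hochberg). In shares and medians of peak number and covered bases, here and below, all genes are these 13753, each with a peak in at least 1 list. In peak number, 1 of the 9 genes was higher in SSCs (Uhrf1), against 16.1% of all genes, and 0 were higher in iNSCs, against 4.68%. In covered bases, 1 was higher in SSCs (Uhrf1), against 15.1%, and 1 in iNSCs (Tet2), against 18.1%. The median difference in peak number, SSC minus iNSC, was 1 peak over the 9 genes and 0.333 over all genes.

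Dnmt1, the maintenance methyltransferase, had the most listed peaks of the family, as a chain of short, high-scoring entries. Its span lies on chromosome 9 from 20907206 to 20959888, minus strand. It had 9, 11 and 11 peaks in SSCs and 7, 9 and 9 in iNSCs. Each list entry was counted as a peak. Exon models were not used, so whether several entries belong to the same stretch of spliced mRNA was not tested. The SSC lists were higher on average but the groups met at 9 peaks (10.3 ± 1.15 against 8.33 ± 1.15, SD, n = 3, exact permutation p = 0.3). Covered length was 712, 1161 and 1119 bases in SSCs and 514, 809 and 825 bases in iNSCs, which also overlapped (exact permutation p = 0.3). Among the 4215 genes with a peak in all 6 lists, 97.2% had fewer peaks on average in SSCs and 96.5% in iNSCs, while only 0.735% had a smaller median peak width in either cell type.

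The Dnmt1 peaks formed 13 regions, a region being a set of peaks from any list that overlap on the same strand. Of the 52 regions in the 9 genes, 10 were in all 6 lists, against 10.1% of the regions in protein-coding genes. Of the Dnmt1 regions, 6 were in all 6 lists, and in each of the 6 the edges were the same to the base in every list. They were 41 to 85 bases long and lay 21842 to 30865 bases before the 3′ end of the span. All 6 were shorter than the RNA fragments that were pulled down, and whether they are separate m6A sites was not tested. No Dnmt1 peak in any list lay closer than 12634 bases to that end.

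The shared Dnmt1 regions ranked high in most lists of both cell types. A score percentile here is the share of a library's own list that scores at or below the peak, with scores at the cap of 3100 counted as 100. The share of peaks at the cap was 3.73% to 7.56% in SSC lists and 15% to 17.6% in iNSC lists, so the same score takes different ranks in the 2 cell types. Percentiles therefore describe rank within lists of unequal length and capped share, and a difference between them is not a measured change in m6A. In the region from 20938071 to 20938146 it was 100 in all SSC lists and 100, 100 and 79.8 in iNSCs. In the region from 20930125 to 20930165 it was 94.2, 100 and 93 in SSCs and 64.1, 68.2 and 50.8 in iNSCs. That was the only one of the 6 in which the groups did not overlap (difference 34.7 points, exact permutation p = 0.1, adjusted 0.21 over 4830 regions), against 29.4% of regions in all 6 lists that were higher in SSCs and 18.1% that were higher in iNSCs. With tied scores given their mean rank, the groups were apart in all 6 regions, with SSCs higher, and without iNSC replicate 2 in 3 more than the 1 above. The rank and the score did not always go together: in the region from 20934519 to 20934559 the deposited scores were 1889, 3100 and 3100 in SSCs and 2771, 3100 and 3076 in iNSCs, while the percentiles were 93.5, 100 and 100 against 83.8, 100 and 83.8.

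Of all 156 peaks in the family, 60.3% had the same edges in at least 2 lists, as 50.3% of all listed peaks did. Beyond the shared chain, the region from 20919840 to 20919987 was listed in all 3 SSC libraries and in no iNSC library, with percentiles of 88.8, 100 and 90.8. It was the only region of the 52 in the 9 genes with that pattern, which 5.59% of regions in protein-coding genes showed, and 0 of the 52 showed the reverse, against 3.43%. It lies nearest to the 3′ end of all Dnmt1 regions. A Dnmt1 peak from 20952708 to 20952853, between listed transcription starts of the gene, was found in SSC replicate 3 alone, at percentile 8.08.

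**Figure D2:**
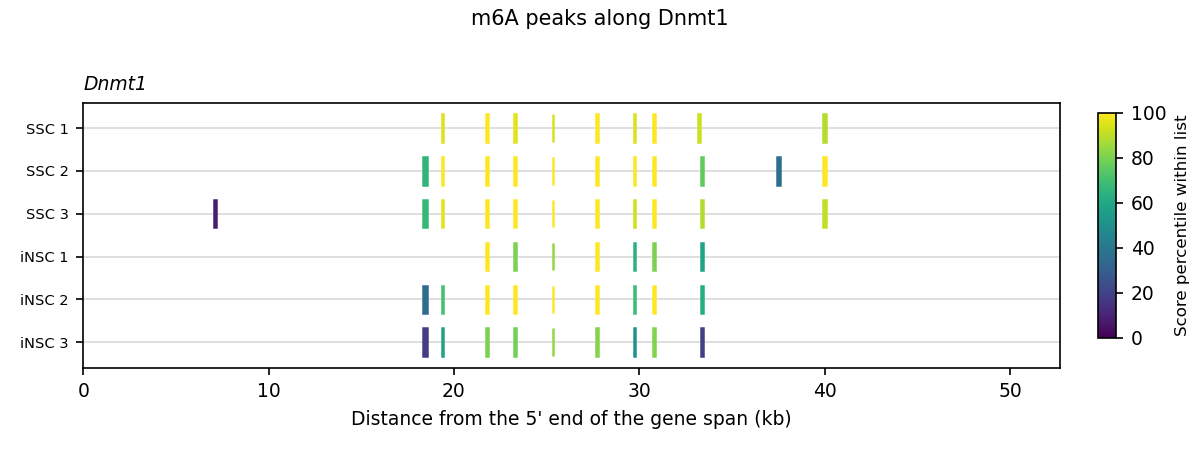
Position of each m6A peak along Dnmt1 (x axis, kb from the 5′ end of the gene span) in the 6 lists (y axis), coloured by score percentile within the list; narrow peaks are drawn with an outline that makes them visible. The 6 regions shared by all lists line up as columns, and the SSC-only region stands to their right, in the 3 upper rows.

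Uhrf1, the protein that brings Dnmt1 to hemimethylated DNA, had weak and scattered peaks in SSCs. The gene spans 20150 bases on chromosome 17, from 56303337, on the plus strand. Its peak number was 2, 4 and 1 in SSCs and 0 in each iNSC library (2.33 ± 1.53, SD, n = 3, against 0, exact permutation p = 0.1, adjusted 0.48). Its best percentiles were 18.3, 57.3 and 1.82. No Uhrf1 region was found in all 3 SSC lists. The region from 56320397 to 56320542 was shared by SSC replicates 1 and 2, and the region at the gene start, from 56303321 to 56303561, by replicates 2 and 3. When each list was cut to its better-scoring 50%, the Uhrf1 peaks of SSC replicates 1 and 3 were lost, and the groups overlapped.

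Dnmt3a, a de novo methyltransferase, had similar peak numbers in both cell types, with more spread between libraries than between the groups. It had 2, 6 and 5 peaks in SSCs and 5, 2 and 7 in iNSCs (4.33 ± 2.08 against 4.67 ± 2.52, SD, n = 3, exact permutation p = 1). Covered length was 1547, 2137 and 2109 bases against 2207, 1274 and 1581 bases. The gene spans 112885 bases on chromosome 12, from 3801559, plus strand, and its peaks formed 8 regions.

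One Dnmt3a region, near the end of the gene from 3907606 to 3909047, was listed in all 6 libraries with the same upstream edge. Its percentiles were 100, 63 and 74.9 in SSCs and 100 in every iNSC list. The groups met at 100 (exact permutation p = 0.4). Without SSC replicate 1 they did not overlap, with a difference, SSC minus iNSC, of -31.1 points. The neighbouring region from 3906765 to 3906883 was in 3 of 3 iNSC lists, at percentiles 46.2, 51.3 and 63.4, and in SSC replicate 3 at 10.8.

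Further upstream in Dnmt3a the ranks ran the other way. The region from 3849635 to 3849739 was at 52.5, 66.6 and 48.3 in SSCs and at 20.9 and 37.7 in iNSC replicates 1 and 3. The region from 3865985 to 3866483 was at 87 and 71.3 in SSC replicates 2 and 3 and at 12.9 and 52.8 in iNSC replicates 1 and 3. The deposited scores overlapped in both. In the same lists they were 170, 426 and 161 against 112 and 223, and 1646 and 374 against 82.5 and 447. These regions were missing from 1 or more lists, so their ranks were not tested. A region of 65 bases from 3891796 to 3891860 was in SSC replicates 2 and 3 only, at percentiles 33 and 38.3. It begins 52 bases after the internal Dnmt3a start at 3891744 in the sequence table. Dnmt3a is known to have a shorter isoform made from an internal promoter and used in germ cells and embryonic stem cells. Which isoform the peaks of this region belong to was not tested. Gm31623, a lncRNA gene on the opposite strand, overlaps there, and both peaks were on the strand of Dnmt3a.

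Dnmt3b and Dnmt3l, the partners of Dnmt3a, had few peaks, and these were in SSC lists. Dnmt3b (chromosome 2, from 153649411 to 153687730, plus strand) had peak numbers of 2, 0 and 4 in SSCs and 0 throughout iNSCs (exact permutation p = 0.4). Their percentiles lay between 34.1 and 73.5. SSC replicates 1 and 3 shared only the region from 153667504 to 153667612. Dnmt3l (chromosome 10, from 78042287 to 78063622, plus strand) had no peak in SSC replicate 1 and 1 peak in each of the other SSC lists, at different places and at percentiles 18.2 and 80.7 (exact permutation p = 0.4). The gene table labels Dnmt3a-ps1, Dnmt3b-ps1 and Dnmt3l-ps1 as pseudogenes, and whether they are without function was not tested. Reads could be shared with them, and none of them had a peak in any list.

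**Figure D3:**
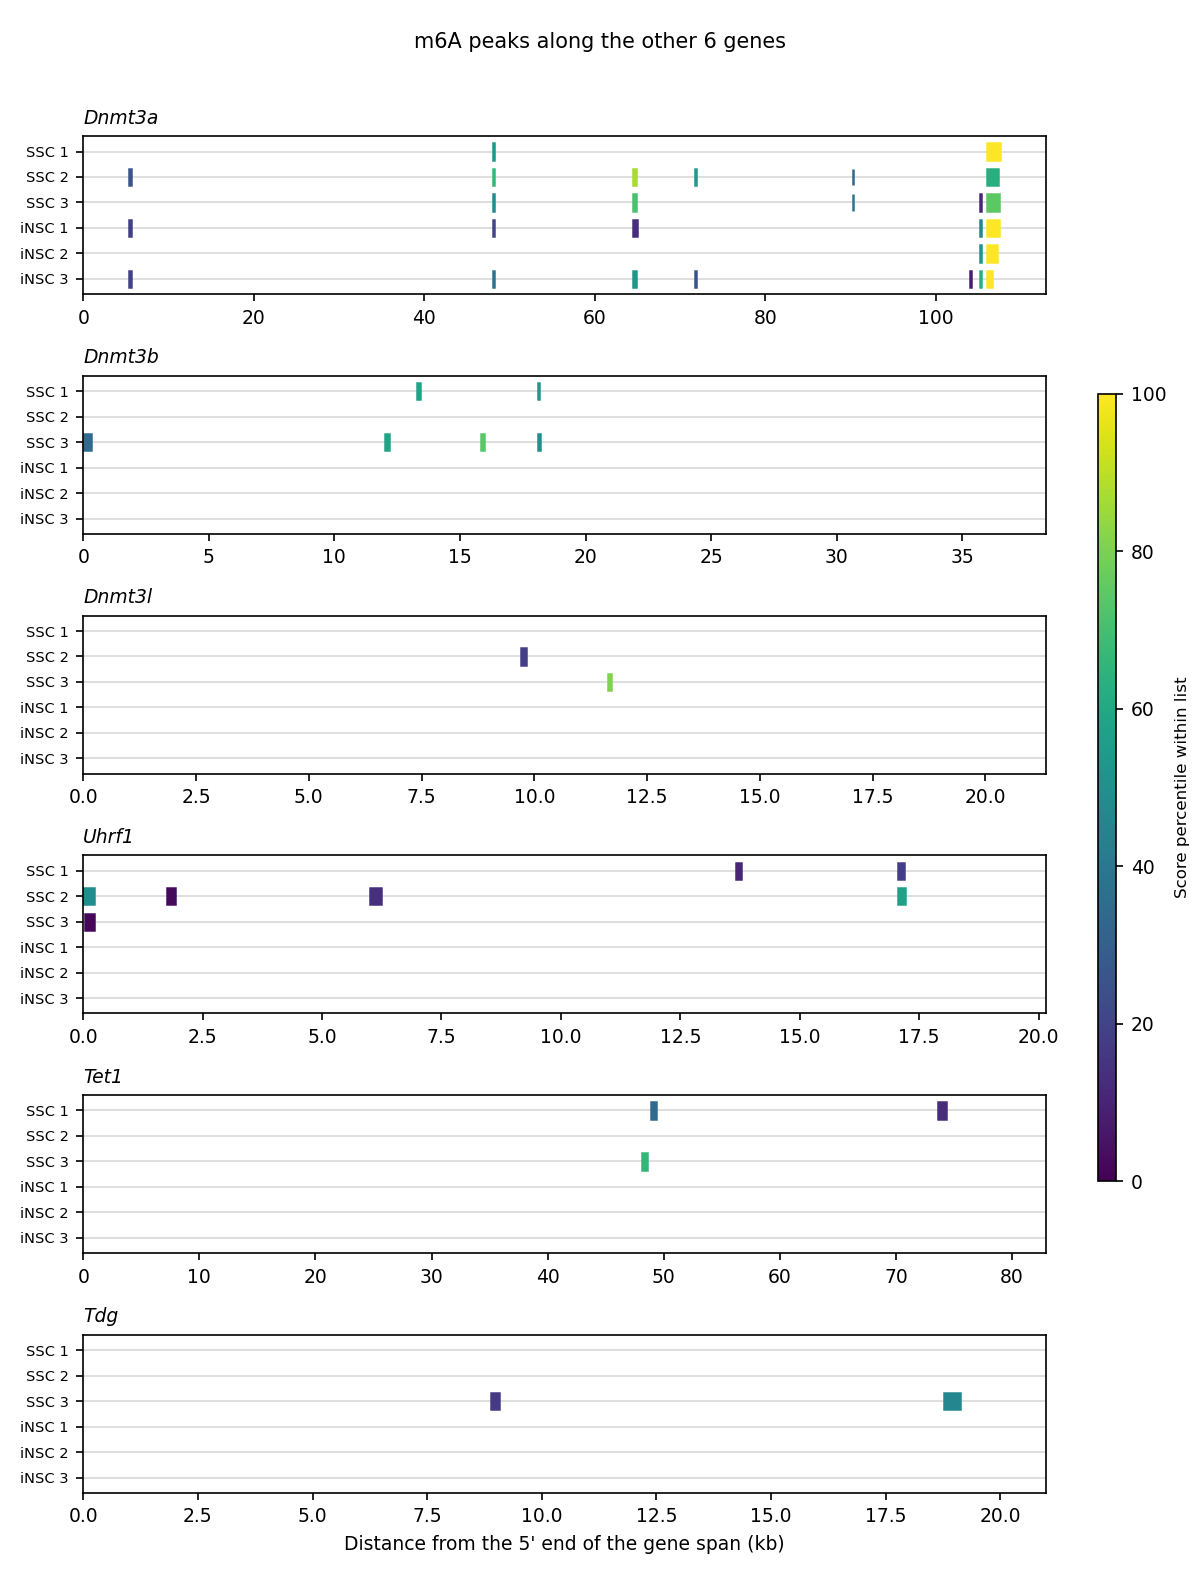
Position of each m6A peak (x axis, kb from the 5′ end of the gene span) in Dnmt3a, Dnmt3b, Dnmt3l, Uhrf1, Tet1 and Tdg for the 6 lists (y axis), coloured by score percentile within the list. Only Dnmt3a has peaks in iNSC rows, and in Dnmt3a the region near the right end is filled in all 6 rows.

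The Tet2 values of the cell types did not overlap in covered length, score rank and peak width, and overlapped in peak number. Tet2 oxidises methylcytosine and has no DNA-binding CXXC domain of its own. Its span on chromosome 3 runs from 133463677 to 133545136, minus strand. Peak numbers were 3, 4 and 6 in SSCs and 3, 4 and 3 in iNSCs (exact permutation p = 0.7). Covered length was 2124, 3010 and 3995 bases in SSCs and 5774, 6014 and 5377 bases in iNSCs. Every iNSC list was above every SSC list, by a factor of 1.88 between the means (3043 ± 936 against 5722 ± 322 bases, SD, n = 3, exact permutation p = 0.1, adjusted 0.301).

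The best Tet2 score percentile was 80.9, 40 and 58.4 in SSCs and 100 in each iNSC list, without overlap (exact permutation p = 0.1, adjusted 0.221 over 4215 genes). Tet3 was the other gene called in this measure, a call that depends on the rank given to tied scores at the cap. Thus 2 of the 4 family members with a peak in all 6 lists were higher in iNSCs, against 25.4% of such genes. In SSCs 0 of 4 were higher, against 19.7%. The median Tet2 peak width was 788, 678 and 700.5 bases in SSCs and 2076, 1364.5 and 2092 bases in iNSCs. Tet2 was the only one of the 4 called in width, where 32.7% of genes were wider in iNSCs and 3.2% in SSCs.

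The Tet2 difference came from 2 long regions, both called in all 6 lists. The region from 133485512 to 133488717 was filled by 1 peak of 3206 bases with the same edges in each iNSC list. In SSC lists the same stretch held 1, 2 and 3 shorter peaks that covered 788, 1297 and 2174 bases. The percentiles there were 80.9, 20.1 and 39.9 in SSCs and 84.9, 100 and 83.8 in iNSCs. The region from 133465952 to 133468190 ends 2275 bases before the 3′ end of the span. It was covered over 948, 1221 and 1154 bases in SSCs and over 2076, 2237 and 2092 bases in iNSCs. Its percentiles were 40.5, 40 and 0.622 in SSCs and 100 in each iNSC list, a difference of -73 points, SSC minus iNSC, the largest in size among the 10 regions of the family found in all 6 lists. In both regions the groups did not overlap in percentile (exact permutation p = 0.1, adjusted 0.21).

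A shorter Tet2 region between them ran the other way in rank. It extends from 133469276 to 133469767 and was at 67.9, 31.8 and 58.4 in SSCs and at 31.3 and 2.39 in iNSC replicates 1 and 2. The deposited scores overlapped there, at 291, 117 and 224 in SSCs and 170 and 55 in those iNSC lists. A region of 79 bases from 133483239 to 133483317 was in iNSC replicates 2 and 3 alone, at 22.7 and 3.15.

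Tet3, the Tet enzyme of oocytes and zygotes that is also expressed in neurons, had the most peak-covered bases of the family. Its span on chromosome 6 runs from 83362373 to 83457208, minus strand. It had 4, 4 and 7 peaks in SSCs and 3, 4 and 8 in iNSCs, and the mean was 5 in both. Covered length was 4455, 3342 and 8760 bases in SSCs and 8949, 6895 and 9256 bases in iNSCs. The groups overlapped through SSC replicate 3 (exact permutation p = 0.2), and without it they did not (difference of the means, SSC minus iNSC, -4468 bases). Among genes with a peak in all 6 lists, 98.6% had a lower covered length in SSCs and 99.2% in iNSCs. The best percentiles were 90.1, 90.5 and 85.9 in SSCs and 100 in each iNSC list (exact permutation p = 0.1, adjusted 0.221). The difference, SSC minus iNSC, of -11.2 points became -3.06 with mean ranks for tied scores, still without overlap. The iNSC values of 100 are capped scores, and 15% to 17.6% of the peaks in iNSC lists were at the cap. The order of the groups in Tet3 percentile thus depends on the rank given to ties, and the lowest rank was not tested.

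**Figure D4:**
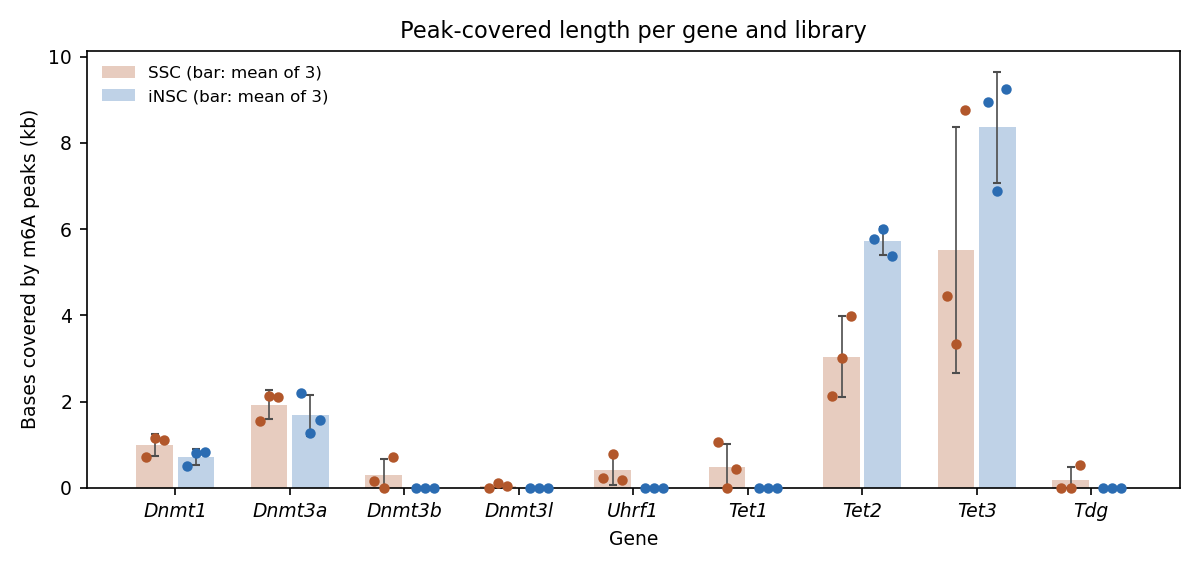
Length covered by m6A peaks (y axis, kb) in each of the 9 genes (x axis). Points are the 3 SSC and 3 iNSC lists, bars their means and lines 1 SD; in Tet2 every iNSC point lies above every SSC point, while in Tet3 the highest SSC point, 8760 bases, lies within the iNSC range.

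The long Tet3 regions were better ranked in iNSCs in most libraries. The region from 83402667 to 83404824 was filled over all its 2158 bases at percentile 100 in each iNSC list, was at 90.1 and 74.8 in SSC replicates 1 and 3, and was missing from SSC replicate 2. The region from 83454750 to 83455480, upstream of the Tet3 start in the sequence table, was at 75.3, 100 and 100 in iNSCs, at 40.8 and 32 in SSC replicates 2 and 3, and missing from replicate 1. The region nearest the 3′ end, from 83363766 to 83369825, was covered over 2322, 2095 and 5361 bases in SSCs and 6060, 3915 and 5527 bases in iNSCs. Its percentiles overlapped, at 67.3, 84.8 and 80.6 against 45.1, 100 and 100.

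A region of 179 bases in Tet3, from 83398439 to 83398617, showed the opposite order. It was at 85.3, 90.5 and 85.9 in SSCs and was listed in iNSC replicate 3 alone, at 1.2, with the same edges in all 4 lists.

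**Figure D5:**
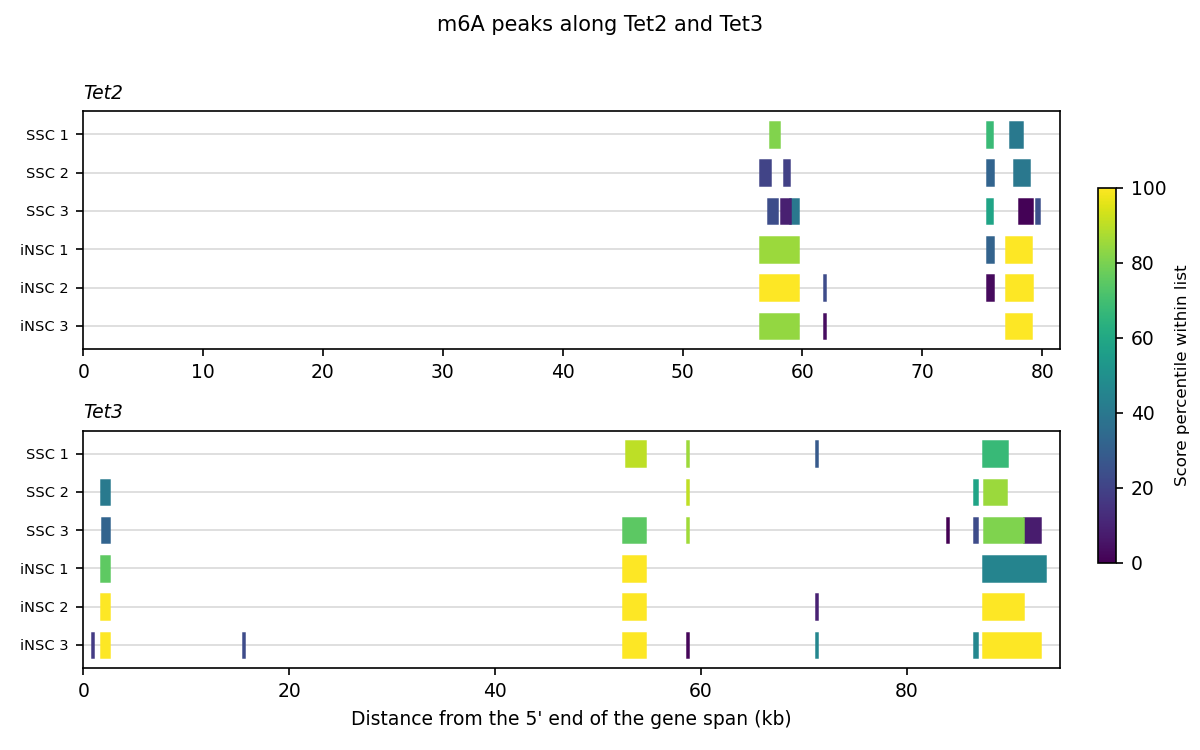
Position of each m6A peak (x axis, kb from the 5′ end of the gene span) in Tet2 and Tet3 for the 6 lists (y axis), coloured by score percentile within the list. In Tet2 the blocks of 3206 bases and of 2076 to 2237 bases in the 3 lower rows are broken into shorter, lower-ranked blocks in the 3 upper rows.

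Tet1 and Tdg had peaks in SSC lists only, and in places that no other list shared. Tet1 (chromosome 10, from 62804570 to 62887469, minus strand) had 2, 0 and 1 peaks, at percentiles 34.3 and 12.4 in replicate 1 and 66.1 in replicate 3 (exact permutation p = 0.4). Tdg, the glycosylase that follows the Tet enzymes, had 2 peaks in SSC replicate 3 and none in the other 5 lists, at percentiles 17.3 and 46. Its span on chromosome 10 runs from 82629814 to 82650799, plus strand, and its copies Tdg-ps and Tdg-ps2, with which it can share reads, had no peak in any list. SSC replicate 3 was the only list with a peak in all 9 genes. It also had the most peaks in the genes listed as fibroblast feeder markers, and a link was not tested.

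Some of the peaks began exactly at a transcription start. They are shown because they are the places where the family's peaks can be read against sequence: 30 bases before the start in lower case and the first 30 transcribed bases in capitals, from the RefSeq promoter table (GRCm38.p6), 5′ to 3′ on the strand of the gene.
Dnmt3a, chr12:3806950-3807009, plus strand: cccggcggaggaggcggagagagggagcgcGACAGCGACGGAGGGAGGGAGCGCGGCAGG
Dnmt3b, chr2:153649419-153649478, plus strand: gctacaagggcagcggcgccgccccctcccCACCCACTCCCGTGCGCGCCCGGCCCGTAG
Uhrf1, chr17:56303307-56303366, plus strand: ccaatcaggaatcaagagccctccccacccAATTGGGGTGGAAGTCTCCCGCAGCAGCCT
Tet3, chr6:83441649-83441708, minus strand: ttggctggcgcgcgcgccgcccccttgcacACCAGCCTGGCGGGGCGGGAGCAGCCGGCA
The Dnmt3a peak from 3806980 to 3807120 began at the first capital in SSC replicate 2 and in iNSC replicates 1 and 3, at percentiles 26, 18.6 and 18.8. The Dnmt3b peak began at its first capital in SSC replicate 3 alone (percentile 34.1), and the Tet3 peak in iNSC replicate 3 alone (percentile 22.9). The Uhrf1 peak began 16 bases before the start in SSC replicate 2 and 34 bases after it in replicate 3. Of all genes with a peak, 15% to 21.6% in the SSC lists and 16.3% to 26.3% in the iNSC lists had one over the first 50 bases of a listed start. A peak that began exactly at a listed start was found in 7.83% to 11.7% and in 8.39% to 14.1% of them.

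The letters GGACT, the best-known form of the m6A sequence motif, and the shorter GGAC were searched on both strands in the first 50 transcribed bases of these 4 starts. GGAC is contained in every GGACT. Neither was found on the transcript's strand, where 5.86% and 20% of 21263 such windows of protein-coding genes hold them. On the other strand GGAC was present in Dnmt3b, and such a match was found in 18.8% of windows. The remaining bases of the peaks lie outside the sequence used here.

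The genes around the family were read from 3 lists of partners. Of 15 partners of methylation upkeep and de novo methylation, 12 had a peak. Of these 12, 3 had more peaks in SSCs without overlap (16.1% of all genes) and 1 in iNSCs (4.68% of all genes). In covered bases 3 were higher in SSCs and 0 in iNSCs, against 15.1% and 18.1% of all genes. Nsd1, a histone methyltransferase whose mark guides Dnmt3a, had peak numbers of 7, 7 and 2 in SSCs and 0 throughout iNSCs. Usp7, a deubiquitinase that binds Dnmt1 and Uhrf1, had 3, 2 and 2 peaks against 1 in each iNSC list. Zfp57, a zinc finger protein that protects imprinted methylation, had 2, 1 and 2 peaks against none. Zfp445, which shares that role, had 2, 1 and 2 peaks in SSCs against 3 in every iNSC library. For each of these 4 genes the exact permutation p was 0.1 (adjusted 0.48). Atrx, a chromatin remodeller, had 15, 13 and 8 peaks against 6, 10 and 7, and Ctcf, which binds unmethylated sites, had 5, 4 and 4 against 4, 4 and 4. The median difference over the list was 0.667 peaks, and 0.333 over all genes.

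The list of methyl-CpG readers held 8 genes taken by name, and whether each of them binds methyl-CpG was not tested. All 8 had a peak. Of these, 1 gene had more peaks in SSCs without overlap and 0 in iNSCs, close to the 16.1% and 4.68% of all genes. That gene, Zbtb38, had 3, 2 and 3 peaks against 1 in each iNSC list (exact permutation p = 0.1, adjusted 0.48). Yet its covered length was higher in iNSCs, and it was the only gene of the list with that call. Mbd6 and Zbtb4, named after their values were seen, were higher in SSCs in covered bases. In that measure 15.1% of all genes were higher in SSCs and 18.1% in iNSCs. Mbd5, a protein with a methyl-CpG-binding domain, had 7, 3 and 7 peaks against 3, 4 and 2, and the groups overlapped. The median difference over the list was 1.17 peaks.

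Of 16 partners of demethylation and base excision repair, 14 had a peak. Of these 14, 1 had more peaks in SSCs without overlap and 1 in iNSCs, against 16.1% and 4.68% of all genes. In covered bases the balance was different, with 1 higher in SSCs (Idh1) and 4 in iNSCs (Cxxc5 and, named after their values were seen, Ogt, Lig3 and Idh2), against 15.1% and 18.1% of all genes. Idh1, which makes the oxoglutarate that Tet enzymes use, had a single peak in every SSC library and 0 in iNSCs. Cxxc5, a CXXC protein related to the DNA-binding part of the Tet family, had 1 peak in each SSC list and 2, 2 and 3 in iNSCs. The exact permutation p was 0.1 for both (adjusted 0.48). Parp1 had 3, 7 and 6 peaks against 2, 3 and 2, and Polb, the repair polymerase, 2, 2 and 3 against 2 in each list, and both overlapped. The median difference over the list was 0.167 peaks.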

How the data were processed

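m6A pull-down libraries of 3 SSC and 3 iNSC samples were used. Per the submitters' processing notes, cutadapt 1.9.3, HISAT2 2.0.4 and mm9 were used; no source states the peak caller's settings. Each deposited file listed the peaks of 1 library with a score per peak, deposited by the authors without a stated unit. Scores began at 50, and the strong ones piled up at 3100. Coordinates are given on GRCm38, 1-based, because 5.01% to 12.2% of peaks had an edge on a gene edge of that table, against 0.00807% to 0.0216% after a shift of 10000 bases.

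Peaks were assigned to protein-coding genes by an overlap of 1 base with the gene span. Peaks per gene, covered bases, best percentile and median width were compared over libraries by exact two-sided permutation tests (smallest possible p 0.1), run on all genes and adjusted over them. Percentile and width tests used genes with a peak in all 6 lists. The tests were checked on simulated data with strong planted differences, a check that did not cover weaker ones. Python 3.11.15, numpy 2.4.6 and pandas 2.3.3 were used. Exon models were not used here, so peaks are placed by distance within the gene span.

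All 9 members were named. Of the partner lists, genes whose groups did not overlap and up to 2 more with the most peaks were named, except 1 gene that is not reported here. The members, lists and tests were chosen with earlier results of these data known, and the percentile of single regions, the counting of capped scores as 100 and the mean-rank alternative were set after the data were seen.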

Additional observations from a re-analysis of the deposited data

How the results depend on the processing

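Of 552 values recomputed under other settings, 14 differences turned their direction, 4 lost a call, 32 gained one and 36 counts or means moved past their limits. Shares over all genes or all regions were taken under the main setting only. The counts below therefore have no matching share beside them, and they are not read as results about the family. With each list cut to its better-scoring 50%, the mean number of the 9 genes with a peak in SSCs was 5.33, 0 genes were found in every SSC list and no iNSC list, 2 genes were called higher in SSCs in covered bases (Dnmt1 and Dnmt3a), 1 gene was called higher in iNSCs in best percentile (Tet3) and 0 in width, and 2 regions each were SSC-only and iNSC-only. Tet2 no longer had a peak in all 6 lists there, so its percentile and width were not tested, while its covered-base difference was -4813 and stayed without overlap. Dnmt1 was called in peak number (2.33 peaks) and Uhrf1 was not. There the difference of SSC minus iNSC turned to 0.667 peaks for Dnmt3a, -1 for Tet2, and -147 bases in the median width of Dnmt3a. At equal list length, 0 genes were called higher in SSCs in peak number or covered bases, 2 were higher in iNSCs in covered bases (Tet2 and Tet3), 0 genes were SSC-only, 2 regions were SSC-only and 1 iNSC-only, and Tet2 turned to -1 peaks. Equal length removes more SSC than iNSC entries. With a peak in at least 2 of 3 libraries, 5 regions were SSC-only and 1 iNSC-only. With peaks of at least 100 bases, which drops most Dnmt1 entries, 1 gene (Dnmt1) was called higher in SSCs in best percentile and its width difference turned to -16.7 bases. With mean ranks for tied scores, 1 gene (Dnmt1) was called higher in SSCs in best percentile, 5 further shared Dnmt1 regions were called higher in SSCs (by 8.92 to 13.3 points), the best-percentile differences of Tet3 and Dnmt3a shrank from -11.2 to -3.06 and from -12.7 to -5.22, and the Tet3 region nearest the 3′ end turned to 1.47 points. For these changes, except where the setting itself removes entries, the cause was not tested.

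Same-numbered libraries did not deviate together (correlations of 3.46e-05, -0.0246 and 0.0607 over 13753 genes), so the numbers are not read as pairs. With the replicate number as a block, in which a call needs all 3 within-number differences to have 1 sign and the smallest p is 0.25, 2 genes were higher in SSCs in peak number and in covered bases (Dnmt1 joining Uhrf1) and 2 higher in iNSCs in covered bases (Tet3 joining Tet2).

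Leaving out 1 library at a time gave 1 to 3 genes higher in SSCs in peak number and in covered bases (3 without SSC replicate 1 or 2), 1 to 2 higher in iNSCs in covered bases (2 without SSC replicate 3 or iNSC replicate 2), 0 to 1 higher in SSCs (1 without SSC replicate 1) and 1 to 2 higher in iNSCs in width (2 without iNSC replicate 3), 1 to 3 SSC-only genes (2 without SSC replicate 1, 3 without SSC replicate 2), 1 to 3 SSC-only regions (3 without SSC replicate 1, 2 without SSC replicate 2 or 3 or iNSC replicate 3) and 0 to 1 iNSC-only regions (1 without SSC replicate 3 or iNSC replicate 1). The Tet2 calls in covered bases, percentile and width were kept in each of these. The differences, SSC minus iNSC, that turned their direction were those of Dnmt3a in peak number (-1.67 to 0.833) and in median width (-175 to 204.5 bases), and that of the Tet3 region nearest the 3′ end in percentile (-22.4 to 4.99).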
